A study of Mus musculus with 101 samples.

Results

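The genes described here are the parts of a single signalling route: the ligand Nodal, its co-receptor Tdgf1 (also called Cripto), the secreted inhibitors Lefty1 and Lefty2, the activin receptors Acvr1b, Acvr2a and Acvr2b, and the signal carriers Smad2, Smad3 and Smad7. They were chosen by symbol, and all 10 are present among the 15423 genes of the deposited table. The study asked whether benzo[a]pyrene (BaP), a combustion product given to pregnant mice, changes the germ cells of later generations. Pregnant F0 mice were given BaP in sesame oil by mouth, at daily doses per kg of 0 (vehicle), 0.033, 0.2 and 2 mg, over a shorter window of gestation for F1 embryos than for the F2 and F3 lines. Primordial germ cells were then sorted from gonads at embryonic day 13.5 and their polyadenylated RNA was sequenced. All embryos were of the OG2 strain, which carries EGFP under control of the Pou5f1 (Oct4) promoter, and the sort took EGFP-positive cells.

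There were 53 male and 48 female embryos from 56 dams. At 0, 0.033, 0.2 and 2 mg/kg-day the male groups held 5, 2, 6 and 8 embryos in F1, 6, 3, 3 and 3 in F2, and 6, 4, 4 and 3 in F3. The female groups held 5, 2, 5 and 5 in F1, 6, 3, 3 and 3 in F2, and 6, 4, 2 and 4 in F3. F1 embryos were themselves exposed in utero, whereas F2 and F3 embryos descend from the dosed F0 dams. The dam of an F1 embryo is thus the dosed animal, while the dam of an F2 or F3 embryo is a descendant of one. The F0 ancestor of F2 and F3 embryos is not labelled, so embryos of a dose group may share one. The tests take these embryos as independent, and their p-values and intervals do not allow for a shared ancestor. Values are normalized counts, that is, reads scaled per embryo by the authors. Whole reads could be recovered from these values in 99 embryos. Summed over the genes of the table, not over all reads sequenced, they ran from 5004382 to 87240533 per library, with a median of 7789673. Of these libraries, 11 (6 male and 5 female, each of F1) held at least 21247642 reads and are called deep here, since the next highest held 12211582.

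Nodal is a secreted ligand of the TGF-beta family that binds type II receptors (Acvr2a, Acvr2b) and the type I receptor Acvr1b with the help of the membrane-anchored co-receptor Tdgf1. The activated receptors phosphorylate Smad2 and Smad3, which enter the nucleus and switch on target genes, among them Nodal itself and the Lefty inhibitors, so that the route feeds both forward and back; Smad7 blocks the receptors from within the cell. In the fetal mouse gonad the route is known to become active in male germ cells around the time of sex determination, when it supports expression of pluripotency genes, while female germ cells enter meiosis.

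The sorted cells carried the defining genes of germ cells in both sexes. The summed level of the 7 germ cell markers had a median of 4170 normalized counts in males and 4037 in females, and Dppa3, a maternal-effect gene of early germ cells, was the most abundant of them, with a median of 2583 in males and 1799 in females. The 5 genes of female fate and early meiosis summed to a median of 168 in males and 1025 in females, with Sycp3, a protein of the meiotic chromosome axis, the most abundant in both. Genes of male fate were low: 3 of 4 were in the table, their sum had a median of 12.6 in males and 2.93 in females, Lhx1 led in males and Piwil4 in females, and Nanos2, a translational regulator of male germ cell fate, was at 0 in 40 of 48 females and in 6 males. Sertoli cell RNA was also present in the male samples. The 8 Sertoli markers summed to between 42.9 and 2628 in males, with a median of 665 and Cst9 the most abundant gene, against 13.8 to 116 in females, where the median was 21.6 and Aard led. The defining Sertoli genes Sox9, Amh and Dhh were at 0 in 36, 39 and 33 females, Amh at 0 in 1 male and Dhh in 3 males. Markers of other cell types had low sums in most embryos. The 5 of 6 pregranulosa markers in the table summed to a median of 2.99 in males (Rspo1 the most abundant) and 4.45 in females (Wnt4), the 5 Leydig markers to 5.12 (Hsd3b1) and 3.37 (Insl3), and the 5 stromal markers to 1.45 and 1.60 (Dcn). The 4 of 5 endothelial markers summed to 25.3 and 31.8, nearly all of it Pecam1, and the 5 macrophage markers to 8.07 and 13.2 (C1qb). The 5 of 6 erythroid markers had medians of 1.18 and 2.82, but reached 4768 in a male and 1653 in a female (Hba-a1). Dnmt3l, Foxl2, Cdh5 and Hbb-bs were not analysed here. In bulk samples like these, fewer cells of a type and less RNA per cell cannot be told apart.

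Nodal, the ligand, was measured in every embryo, and its level lay from 3.87 to 24.0 normalized counts in the 53 males, with a median of 11.5. In the 48 females it lay from 0.113 to 3.499, with a median of 0.739. Every male embryo, whatever its generation and dose, stood above every female embryo. Tdgf1, without which Nodal signals poorly, ranged from 7.80 to 53.4 in males with a median of 17.3, and from 0 to 6.91 in females with a median of 0.267. The male and female ranges of Tdgf1 did not touch either, although the gap was narrow, between 6.91 and 7.80. At the female median Tdgf1 rests on 3 reads, against 134 reads at the male median.

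The secreted inhibitors were the most abundant members in males. Lefty1 ran from 20.54 to 117 normalized counts in males, with a median of 75.1, and from 0 to 3.85 in females, with a median of 0.994. Lefty2 ran from 33.8 to 143 in males, with a median of 84.0, and from 0 to 3.96 in females, with a median of 0.201. For both inhibitors the sexes did not overlap. In all, 4 of the 10 members had every male above every female, a pattern that 0.399% of the 13288 tested genes showed; among the 17 vehicle males and 17 vehicle females alone, the same 4 members had it, against 2.21% of genes. Lefty1 and Lefty2 are close relatives that lie near each other on chromosome 1 (180935022 to 180938400 and 180893108 to 180899103, both on the plus strand of GRCm38), and how reads that fit both genes were shared between them is not stated.

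Receptors and Smads were expressed in both sexes, and the ranges of the sexes overlapped for each of them. Acvr2a, the type II receptor that was higher in females, had a median of 7.84 in males (3.56 to 27.1) and 11.5 in females (6.52 to 18.3). Acvr2b, the other type II receptor, had a median of 5.44 in males (0.869 to 12.2) and 3.92 in females (1.17 to 8.45). Smad2, the more abundant of the receptor-activated Smads, had a median of 58.1 in males (17.4 to 106) and 78.0 in females (27.4 to 114). Smad3, its partner, stood far lower, at 3.54 in males (1.27 to 5.59) and 2.77 in females (0.916 to 4.82). Smad7, the inhibitory Smad, had a median of 5.996 in males (3.795 to 17.9) and 3.79 in females (2.24 to 10.1). Acvr1b, the type I receptor of the route, was nearly absent: its median was 0.409 in males and 0.440 in females, its highest value was 1.97, and its median read count was 3.5 in males and 4 in females.

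Levels can be set against each other between genes only after division by length, taken here as the union of all annotated exons of a gene. That union can be longer than the transcript expressed, so the orders below are approximate. On the scale of normalized counts per kb of exon, the male medians ran in the order Lefty1 (42.7), Lefty2 (32.2), Smad2 (6.61), Tdgf1 (6.58), Nodal (5.48), Acvr2b (1.39), Acvr2a (1.38), Smad7 (1.33), Smad3 (0.639) and Acvr1b (0.0925). Neighbours such as Smad2 and Tdgf1, or Acvr2b, Acvr2a and Smad7, lie closer together than embryos of the same sex lie to each other. In females the order per kb was Smad2 (8.88), Acvr2a (2.01), Acvr2b (0.998), Smad7 (0.839), Lefty1 (0.565), Smad3 (0.4997), Nodal (0.353), Tdgf1 (0.102), Acvr1b (0.0997) and Lefty2 (0.0771). Lefty1 and Lefty2, at the head of the male order, thus stood 5th and last in the female order, while Acvr1b was near the bottom in both.

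**Figure D1:**
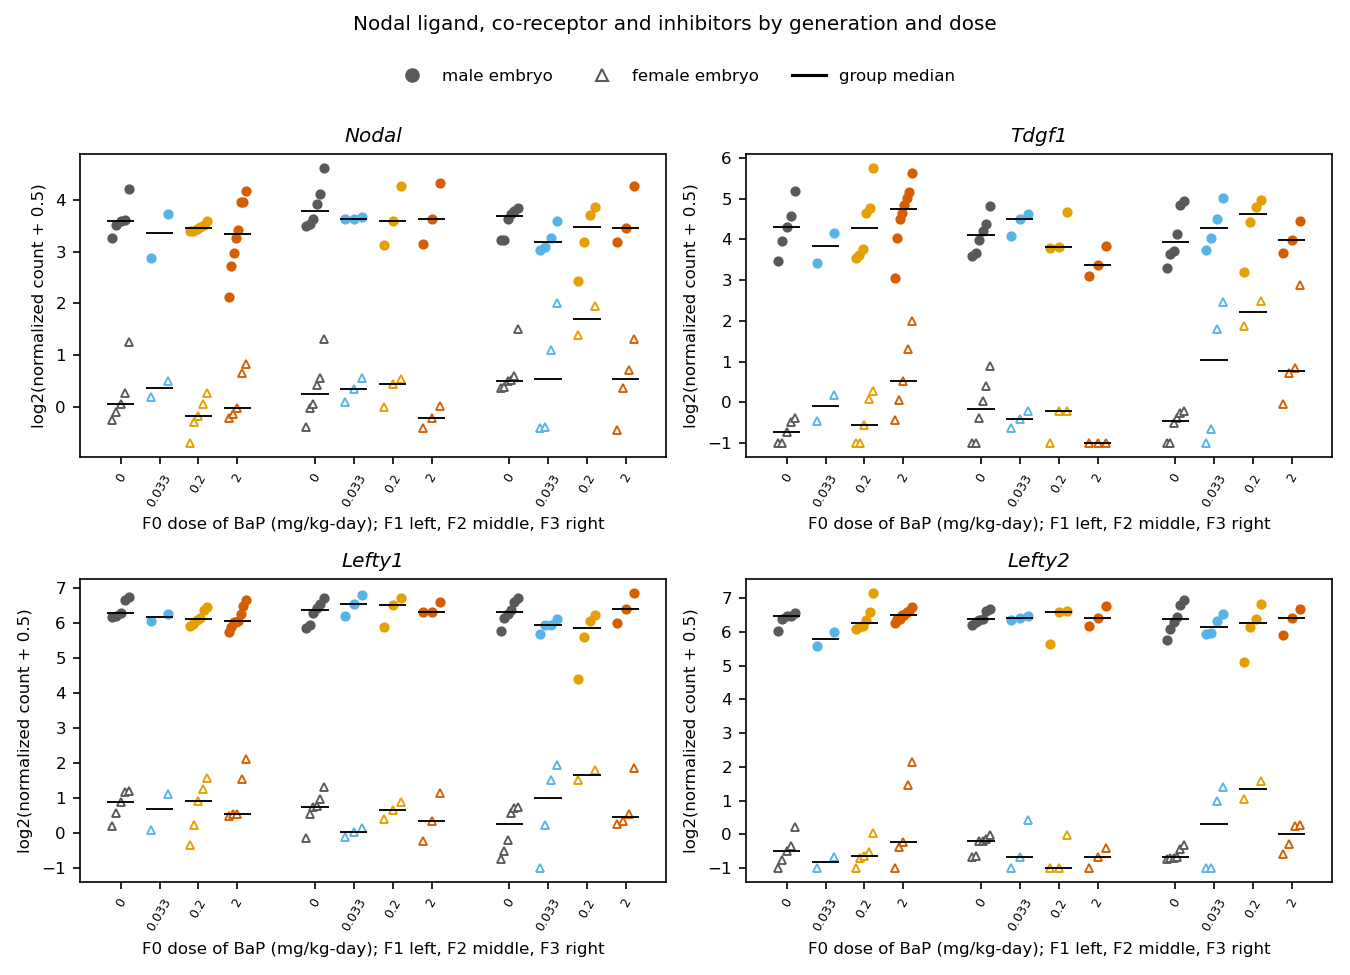
Level of Nodal, Tdgf1, Lefty1 and Lefty2 in each embryo as log2(normalized count + 0.5), by generation and by F0 dose of BaP in mg/kg-day; filled circles are male embryos, open triangles female embryos and bars group medians. In each of the 4 panels the male embryos lie above the female embryos, and the lowest male values of Lefty1 (20.54 normalized counts) and Lefty2 (33.8) belong to the same F3 embryo.

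The comparison of the sexes in vehicle embryos asked which members mark the male state without exposure. In the combined fit of all generations with limma, 4 of 10 members passed an adjusted p of 0.05 with a fold change over 2, each higher in males. Over all 13288 genes tested, 16% passed, 7.91% with the male side higher. The vehicle males stood at 53.7 to 122 normalized counts of Lefty2 (median 84.0) and the vehicle females at 0 to 0.670 (median 0.212), a log2 difference of 6.87 (SE 0.20, n = 17 and 17). For Lefty1 the vehicle values were 54.9 to 108 in males and 0.1001 to 1.98 in females, a log2 difference of 5.83 (SE 0.19). Tdgf1 stood at 9.35 to 35.7 in vehicle males and 0 to 1.36 in vehicle females, a log2 difference of 4.63 (SE 0.28). Nodal stood at 8.78 to 24.0 and 0.262 to 2.33, a log2 difference of 3.29 (SE 0.19). The adjusted p was 3.4e-54 for Lefty2, 1.4e-49 for Lefty1, 1.1e-27 for Tdgf1 and 7.3e-30 for Nodal. These differences are on log2(normalized count + 0.5), so the size of the Tdgf1 and Lefty2 differences depends on the 0.5 added to female values near 0.

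The same 4 members passed in each generation by itself in limma, and in F2 both edgeR tests also called Smad7 (log2 difference 1.16), as did limma with 0.1 added in place of 0.5 (1.04). In F1, 10 members were tested, against a share of 15.4% of all genes called; in F2 and in F3, 9 members were tested, Acvr1b being too low, against 16.7% and 16% of genes. Lefty2 differed by 6.87, 6.75 and 6.98 log2 units in F1, F2 and F3, and Nodal by 3.40, 3.57 and 2.93. Without the demand of a 2-fold change, 9 of 10 members passed in the combined fit in limma, but 56.5% of all genes did too, and 7 members passed in each edgeR test. Of these smaller differences, Smad7 was higher in males by 0.73 log2 units (SE 0.14, adjusted p = 3.9e-06), Smad3 by 0.49 (SE 0.17, adjusted p = 0.0092) and Acvr2b by 0.49 (SE 0.21, adjusted p = 0.044). Smad2 and Acvr2a were lower in males, by -0.42 (SE 0.16, adjusted p = 0.019) and -0.35 log2 units (SE 0.14, adjusted p = 0.024). Acvr1b, at -0.20 (SE 0.17, adjusted p = 0.31), did not pass. Acvr2b and Acvr2a did not pass in either edgeR test (adjusted p = 0.073 and 0.12 by quasi-likelihood, 0.070 and 0.11 by likelihood ratio), Acvr2b did not with 0.1 added in place of 0.5 (adjusted p = 0.051), and Acvr2a did not without the deep libraries (adjusted p = 0.068). The median log2 difference was 0.61 over the members and 0.00193 over all genes.

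The wider pathway was read from a list of 44 other genes by role, of which 40 were in the table and 36 tested in the combined fit; Inhba, Acvr1c, Tgfbr2 and Ldlrad4 were not analysed here. In vehicle embryos 14 of the 36 passed with a fold change over 2, 9 higher in males and 5 lower, against 16% of all genes called and 7.91% called higher in males, and the median log2 difference of the 36 was 0.18. Otx2, a homeobox target in the early embryo, was higher in males by 3.87 log2 units (SE 0.16), and Inha, the inhibin subunit that is also among the 8 Sertoli markers, by 4.08 (SE 0.35). Also higher in males were Pmepa1, a membrane protein that sequesters Smads, by 2.87 (SE 0.17), the corepressor Tgif1 by 1.87 (SE 0.17), the secreted Nodal antagonist Cer1 by 1.39 (SE 0.16) and the Smad phosphatase Ppm1a by 1.08 (SE 0.11). On the female side stood Cfc1, the other co-receptor of the Cripto family, with -2.15 (SE 0.19), the inhibitory Smad6 with -1.41 (SE 0.15) and the type I receptor Acvr1 with -1.02 (SE 0.13). Each of these named genes had an adjusted p of 1.4e-10 or less in limma. With only genes of a mean of at least 5 tested, 6 pathway genes passed, since fewer of them entered the test.

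The exposure comparisons asked whether an F0 dose changed the route in males of each generation. No member passed an adjusted p of 0.05 in limma in any of the 9 comparisons of a dose with vehicle in males (0 of 84 tests of a member), and 0 of the 84 had an unadjusted p under 0.05. With the quasi-likelihood test of edgeR 0 members passed, with 1 unadjusted p under 0.05 in F2 at 0.2 and 1 in F3 at 2 mg/kg-day; with its likelihood ratio test 0 passed, with 1 in F2 at 0.2 and 1 in F2 at 2 mg/kg-day. Few other genes were called in males: limma called 0% of genes in 8 of the 9 comparisons and 0.145% in F2 at 0.2 mg/kg-day. The quasi-likelihood test called 0.0229% there, 0.0381% in F3 at 0.2 and 0% in the other 7, and the likelihood ratio test called 0.604% in F2 at 0.2, 0.0229% in F2 at 2, 0.632% in F3 at 0.2 mg/kg-day and 0% in the other 6.

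Nodal in F1 males was 9.14, 10.9, 11.6, 11.7 and 17.9 normalized counts in vehicle embryos and 6.79 and 12.8 at 0.033 mg/kg-day. At 0.2 mg/kg-day it ran from 10.04 to 11.5 (median 10.5, n = 6), and at 2 mg/kg-day from 3.87 to 17.6 (median 9.65, n = 8). The doses overlapped with vehicle throughout, and the widest spread was at 2 mg/kg-day. In F2 males Nodal was 10.7 to 24.0 in vehicle embryos (median 13.2, n = 6), 11.9, 11.9 and 12.3 at 0.033, 8.18, 11.5 and 18.7 at 0.2, and 8.35, 11.9 and 19.6 at 2 mg/kg-day. In F3 males it was 8.78 to 13.9 in vehicle embryos (median 12.3, n = 6), 7.69, 8.02, 9.10 and 11.5 at 0.033, 4.88, 8.57, 12.6 and 14.0 at 0.2, and 8.59, 10.4 and 18.7 at 2 mg/kg-day. The fitted log2 differences of Nodal ran from -0.34 to 0.06 over the 9 comparisons, 8 of them below 0, and comparisons of a generation share their vehicle embryos. Over all doses and generations Nodal differed by -0.26 log2 units (95% interval -0.58 to 0.06) in limma, which did not pass.

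Tdgf1 varied more between male embryos than Nodal did. In F1 males its values were 10.6, 15.0, 19.1, 23.2 and 35.7 in vehicle embryos, 10.2 and 17.3 at 0.033, 11.1 to 53.4 at 0.2 (median 18.9, n = 6) and 7.80 to 49.0 at 2 mg/kg-day (median 26.5, n = 8). Both extremes of the F1 range thus lay in exposed embryos, on either side of vehicle. In F2 males Tdgf1 was 11.5 to 28.0 in vehicle embryos (median 16.7, n = 6), 16.6, 22.0 and 24.0 at 0.033, 13.3, 13.5 and 25.0 at 0.2, and 8.08, 9.89 and 13.7 at 2 mg/kg-day. The last group held 2 embryos below every F2 vehicle male, and the log2 difference was -0.67 (95% interval -1.36 to 0.02, unadjusted p = 0.056, adjusted p = 1 in limma). In F3 males Tdgf1 was 9.35 to 30.4 in vehicle embryos (median 14.8, n = 6), 12.8, 15.9, 22.2 and 31.7 at 0.033, 8.62, 21.0, 27.1 and 30.5 at 0.2, and 12.2, 15.4 and 21.2 at 2 mg/kg-day. Over all doses and generations the difference was 0.09 (95% interval -0.40 to 0.58).

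Lefty1 in F3 males was 54.9 to 106 in vehicle embryos (median 79.7, n = 6), 51.7, 61.7, 61.7 and 69.1 at 0.033, 20.54, 48.5, 66.6 and 75.1 at 0.2, and 64.0, 84.9 and 117 at 2 mg/kg-day. The embryo at 20.54, D1390.5, also had the lowest Lefty2 of any male (33.8), the lowest Nodal of the F3 males (4.88) and their lowest Tdgf1 (8.62). The log2 difference of Lefty1 at 0.2 mg/kg-day in F3 was -0.74 (95% interval -1.59 to 0.11, unadjusted p = 0.084, adjusted p = 0.55 in limma). In F1 males Lefty1 was 72, 74.3, 77.4, 100.7 and 108 in vehicle embryos, 66.2 and 77.0 at 0.033, 60.7 to 87.4 at 0.2 (median 68.9, n = 6) and 53.4 to 102 at 2 mg/kg-day (median 66.0, n = 8). In F2 males it was 58.0 to 106 in vehicle embryos (median 82.3, n = 6), 74.3, 93.0 and 112 at 0.033, 59.4, 92.2 and 105 at 0.2, and 79.2, 80.3 and 97.9 at 2 mg/kg-day. Exposed and vehicle males overlapped in each generation.

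Lefty2 gave the highest male value of any member, 143 normalized counts (1350 reads) in F1 male D1190.1. In F1 males it was 65.2, 84.0, 88.1, 88.2 and 93.8 in vehicle embryos, 47.9 and 63.1 at 0.033, 68.0 to 143 at 0.2 (median 77.0, n = 6) and 76.2 to 107 at 2 mg/kg-day (median 90.4, n = 8). The pair of F1 embryos at 0.033 mg/kg-day lay below the 5 vehicle embryos, with a log2 difference of -0.59 (95% interval -1.53 to 0.34) that did not pass. Their Sertoli sums, 1293 and 2628, were above those of the 5 vehicle males (at most 1121). The part of Sertoli RNA in the Lefty2 values of these embryos was not tested. In F2 males Lefty2 was 73.2 to 103.4 in vehicle embryos (median 83.1, n = 6), 82.1, 85.0 and 89.5 at 0.033, 49.6, 95.7 and 99.1 at 0.2, and 72.7, 84.6 and 110 at 2 mg/kg-day. In F3 males it was 53.7 to 122 in vehicle embryos (median 82.7, n = 6), 60.7, 62.5, 79.6 and 93.4 at 0.033, 33.8, 70.5, 83.7 and 115 at 0.2, and 59.99, 85.5 and 102.6 at 2 mg/kg-day. Over all doses and generations Lefty2 differed by -0.09 (95% interval -0.43 to 0.25) and Lefty1 by -0.18 (95% interval -0.51 to 0.15).

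Among receptors and Smads of males, the fitted differences of single doses ran from -0.55 log2 units (Smad3) to 0.44 (Acvr1b), and the 95% intervals from -1.54 (Acvr2b) to 1.31 (Acvr2b). The intervals of the 9 comparisons reached -1.68 and 1.31 for Tdgf1 and -1.59 and 1.04 for Lefty1. Over all doses of F2, Acvr2b had a log2 difference of -0.39 (95% interval -0.77 to -0.00071, unadjusted p = 0.0496), and at 2 mg/kg-day over all generations Acvr1b had 0.59 (SE 0.18, unadjusted p = 0.0013) at a median of 3.5 reads; neither passed in limma (adjusted p = 1 and 0.77). Pooled over all doses and generations, 0 members passed in males, with 0 unadjusted p under 0.05, in limma and in both edgeR tests. Over all genes the pooled comparison of males called 0% in limma, 0.0301% by quasi-likelihood and 0.00753% by likelihood ratio. In F3 males the sum of the Sertoli markers was 67.1 to 482 at 0.2 mg/kg-day (median 291, n = 4) and 75.2 to 1413 in vehicle embryos (median 845, n = 6). For F2 males the sum was 42.9 to 567 at 0.2 mg/kg-day (median 518, n = 3) and 504 to 1357 in vehicle embryos (median 1000, n = 6). The F2 medians at 0.033 and 2 mg/kg-day were 1084 and 504. Neither these differences nor their part in the member values was tested.

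**Figure D2:**
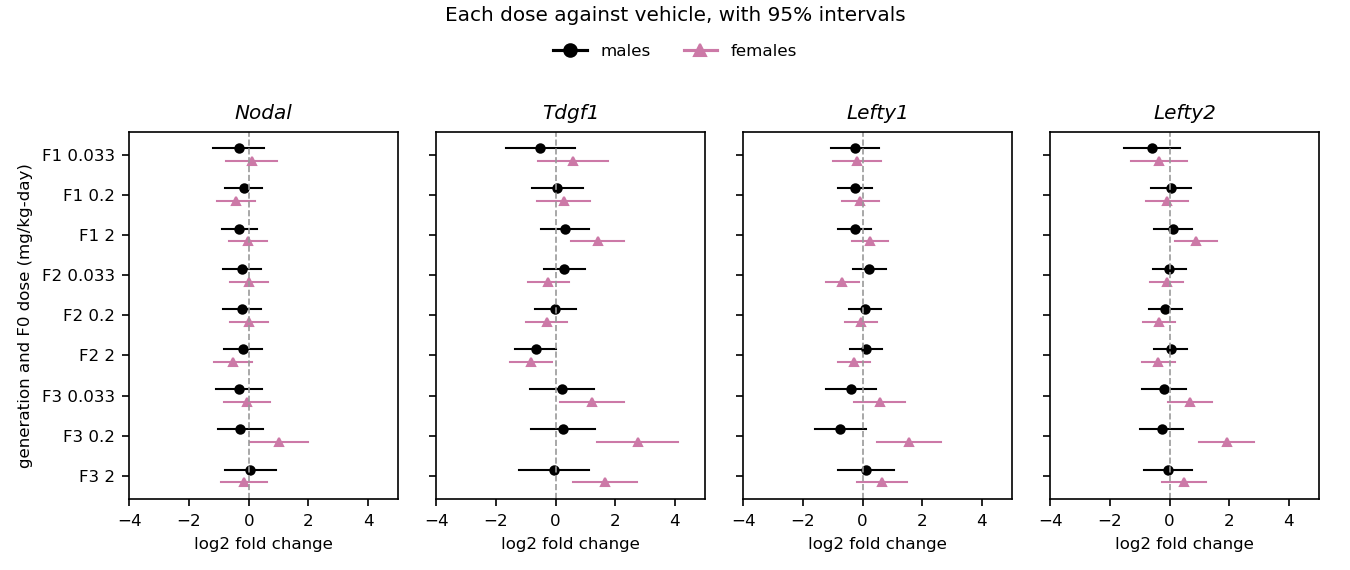
Fitted log2 difference from vehicle of Nodal, Tdgf1, Lefty1 and Lefty2 for each generation and F0 dose in mg/kg-day, with 95% intervals from limma; circles are males and triangles females. The male estimates lie between -0.74 (Lefty1, F3, 0.2 mg/kg-day) and 0.32 (Tdgf1, F1, 2 mg/kg-day).

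In females the same comparisons called 0 members in limma in each of the 9 dose comparisons, while 1 of all 13635 genes (0.00733%) was called in F1 at 2 mg/kg-day and 0% in the other 8. Unadjusted p-values under 0.05 were seen for Tdgf1 and Lefty2 in F1 at 2, for Lefty1 in F2 at 0.033, for Acvr2a in F2 at 0.2 and for Tdgf1 in F2 at 2 mg/kg-day. In F3 they were seen for Tdgf1 at 0.033, for Nodal, Tdgf1, Lefty1 and Lefty2 at 0.2, and for Tdgf1 and Smad2 at 2 mg/kg-day. The quasi-likelihood test called 0 members in these 9 comparisons (0.022% of genes in F1 at 2 mg/kg-day and 0% in the other 8). The likelihood ratio test made 5 calls of 2 members: Tdgf1 and Lefty2 in F1 at 2 mg/kg-day (0.0587% of genes), Tdgf1 in F3 at 0.033 (0.16%), and Tdgf1 and Lefty2 in F3 at 0.2 mg/kg-day (0.0228%), each higher in exposed females; in F1 at 0.2 mg/kg-day it called 0.00733% of genes and no member. The 2 F3 females at 0.2 mg/kg-day had 3.15 and 5.15 normalized counts of Tdgf1, above the highest F3 vehicle female at 0.368. In F2 the direction was not kept, as the 3 females at 2 mg/kg-day were all at 0 for Tdgf1. Pooled over doses and generations limma called 0 members in females, with 1 unadjusted p under 0.05, and the quasi-likelihood test 0 (0.00753% of genes), with 2 such values, whereas the likelihood ratio test called Tdgf1 (0.0301% of genes; log2 difference 1.97, adjusted p = 0.033, against 0.67 in limma, adjusted p = 0.56).

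Outside the planned comparisons, and chosen after their values were seen, 2 further contrasts called members in females. At 2 mg/kg-day over all generations, limma called 181 of 13288 genes and 0 members, quasi-likelihood 33 genes and likelihood ratio 144. There Tdgf1 had a log2 difference of 0.87 (unadjusted p = 0.0063, adjusted p = 0.082) and Lefty2 0.42 (unadjusted p = 0.056, adjusted p = 0.23). Both edgeR tests called both genes: Tdgf1 with an adjusted p of 0.049 by quasi-likelihood and 0.015 by likelihood ratio, and Lefty2 with 0.049 and 0.013. Over all doses of F3, the likelihood ratio test called 1 of 13139 genes, Tdgf1 (log2 difference 3.48, adjusted p = 0.014), and limma (1.87, adjusted p = 0.64) and quasi-likelihood (3.49, adjusted p = 0.98) did not. Calls of Tdgf1 and Lefty2 in females thus depend on the test. Over all generations the female mean of Lefty2 was 0.490, so in the combined fit it met the minimum of 0.5 only through males.

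Whether the sexes responded differently was tested as an interaction. Limma called 0 members and 0% of genes, both pooled and in each of the 9 comparisons of single doses. In the pooled comparison 0 members had an unadjusted p under 0.05 in limma; quasi-likelihood called 0 members and 0.0527% of genes, and likelihood ratio 0 members and 0.0376%, each with an unadjusted p under 0.05 for Tdgf1 and Lefty2. The pooled male minus female response was -0.58 log2 units for Tdgf1 (95% interval -1.28 to 0.12), -0.37 for Lefty1 (-0.83 to 0.10), -0.37 for Lefty2 (-0.86 to 0.12) and -0.18 for Nodal (-0.64 to 0.28). The lowest values were those of F3 at 0.2 mg/kg-day, with -2.51 for Tdgf1, -2.30 for Lefty1, -2.18 for Lefty2 and -1.30 for Nodal, each with an unadjusted p under 0.05 and an adjusted p near 1 in limma. Lefty1 in F2 at 0.033 and Tdgf1 in F3 at 2 mg/kg-day were the other members with an unadjusted p under 0.05. In F3 at 0.2 mg/kg-day the likelihood ratio test called Lefty2 alone among the members (log2 difference -3.55, adjusted p = 0.017, 0.0228% of genes called). Of the pathway list, 0 of the tested genes passed in any exposure comparison in limma, and 1 passed by likelihood ratio, Otx2 in females at 2 mg/kg-day over all generations (log2 difference 1.94, adjusted p = 0.039).

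How the members moved with each other from embryo to embryo was read from the correlation of log2 values over the 53 males, for all 45 pairs. By Pearson's r, 7 pairs passed an adjusted p of 0.05 in a permutation test, 6 positive and 1 negative, and by Spearman's rho 2 of these passed. The pair of highest r was Nodal and its receptor Acvr2b, with r = 0.63 and rho = 0.61. The permutation p was 1e-05 for each, the smallest that the permutations can give, and the adjusted p was 0.00045. The relation was seen in each generation, with r = 0.65 in F1 (n = 21), 0.67 in F2 (n = 15) and 0.61 in F3 (n = 17), in the 17 vehicle males (0.76) and in the 36 exposed males (0.57). It was 0.55 without the 2 males farthest from the Nodal median. Without the deep libraries it was 0.57 (n = 47).

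Nodal and Lefty1, ligand and inhibitor, were the other pair that passed by both measures, with r = 0.59 and rho = 0.54 (permutation p = 3e-05 and 6e-05, adjusted p = 0.00067 and 0.0013). By generation r was 0.50 in F1, 0.34 in F2 and 0.79 in F3, with 0.45 in vehicle and 0.59 in exposed males, and 0.53 without the 2 males farthest from the Nodal median. Males with more Nodal thus tended to hold more Lefty1 and more Acvr2b, while Lefty1 and Acvr2b themselves were not past the threshold together (r = 0.29, permutation p = 0.040, adjusted p = 0.22; rho = 0.31, adjusted p = 0.12). Nodal and Tdgf1, which act on the same receptor, had no relation past the threshold in males (r = -0.16, rho = -0.18, permutation p = 0.25 and 0.20, adjusted p = 0.48 and 0.52), with -0.39 in F1, -0.04 in F2 and 0.33 in F3, values of both signs. Nor had Tdgf1 and Lefty1 (r = 0.028, rho = -0.071, permutation p = 0.84 and 0.61, adjusted p = 0.90 and 0.81).

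Tdgf1 moved with the other inhibitor, Lefty2: r = 0.45 and rho = 0.37 (permutation p = 0.00060 and 0.0070, adjusted p = 0.0090 and 0.060). Its r was 0.55 in F1, 0.09 in F2 and 0.60 in F3, with 0.42 in vehicle and 0.48 in exposed males; the difference between generations was not tested. Without the 2 males farthest from the Tdgf1 median r was 0.36, and with littermates averaged it was 0.37 with an adjusted p of 0.064, past the threshold no longer. Nodal and Lefty2 had r = 0.43 and rho = 0.38 (permutation p = 0.0014 and 0.0053, adjusted p = 0.013 and 0.060), with 0.08 in F1, 0.70 in F2 and 0.66 in F3, 0.03 in vehicle and 0.52 in exposed males, and 0.37 without the 2 males farthest from the Nodal median. Without F3 male D1390.5 the r of Nodal and Lefty2 was 0.32 (adjusted p = 0.12), no longer past the threshold.

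For 2 further positive pairs the call rests on single embryos. Lefty1 and Lefty2 had r = 0.41 and rho = 0.19 (permutation p = 0.0043 and 0.17, adjusted p = 0.032 and 0.51), with -0.18 in F1, 0.28 in F2 and 0.67 in F3. It was 0.12 without the 2 males farthest from the Lefty1 median, was 0.15 without D1390.5 (adjusted p = 0.45), 0.39 without F3 vehicle male D3523.1 (adjusted p = 0.054) and 0.32 with littermates averaged (adjusted p = 0.15). The inhibitor genes, neighbours on the chromosome and alike in sequence, thus had no relation past the threshold without D1390.5. Acvr2a and Smad7 had r = 0.47 and rho = 0.36 (permutation p = 0.0011 and 0.0081, adjusted p = 0.012 and 0.060), with 0.23 in F1, -0.09 in F2 and 0.78 in F3, 0.475 in vehicle and 0.47 in exposed males, and 0.19 without the 2 males farthest from the Acvr2a median. Without F3 vehicle male D3402.3, which held the highest level of both genes (27.1 and 17.9 normalized counts), it was 0.26 over all other males (adjusted p = 0.29), although the exposed males do not include it.

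The negative pair was Tdgf1 and Smad3, with r = -0.38 and rho = -0.39 (permutation p = 0.0053 and 0.0039, adjusted p = 0.034 and 0.059). Its r was -0.36 in F1, -0.27 in F2 and -0.41 in F3, and -0.39 without the 2 males farthest from the Tdgf1 median. With littermates averaged it was -0.38 (adjusted p = 0.058), and the adjusted p was above 0.05 without any single one of 14 males: C4219.2, C4258.5, C4578.2, D2582.2, D2595.1 and D1190.1 of F1, D3620.6, D3371.2 and D3001.1 of F2, and D2374.1, D3501.1, D3744.4, D1388.1 and D3523.1 of F3. Its value then lay between -0.37 (D3523.1) and -0.34 (C4219.2). The remaining 38 pairs did not pass.

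**Figure D3:**
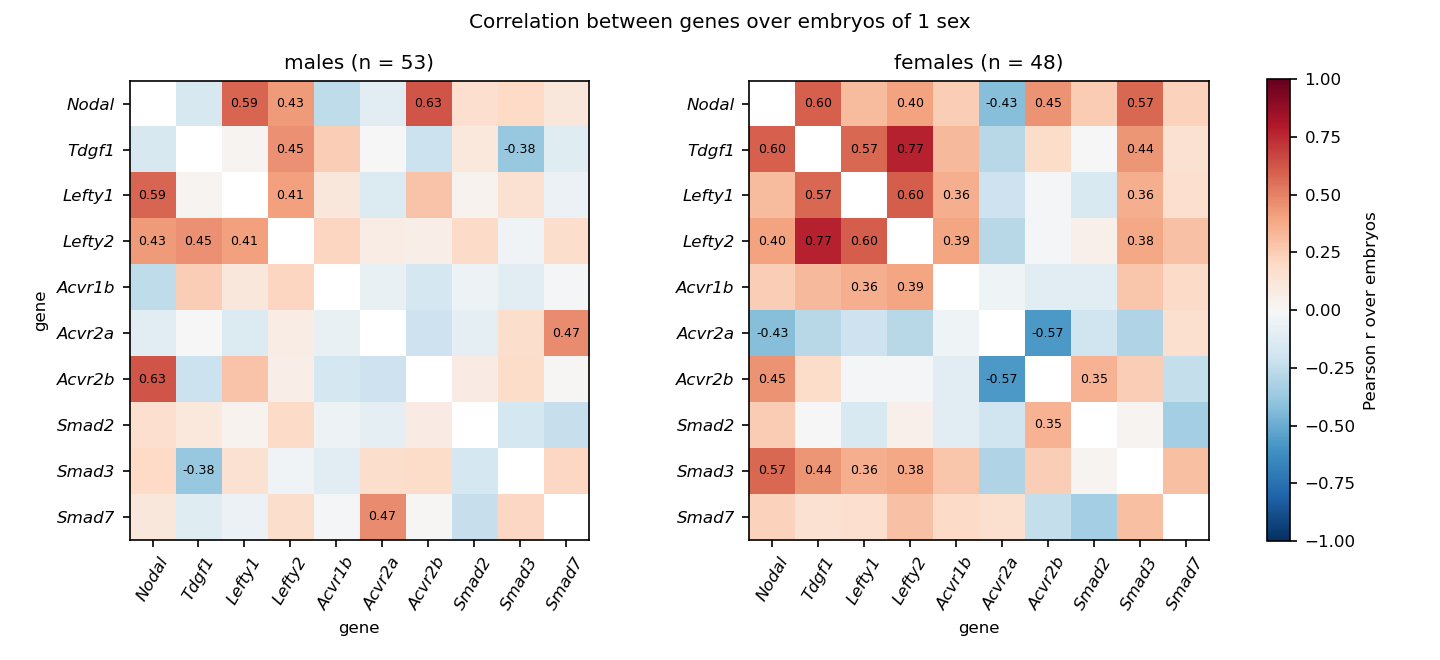
Pearson r between each pair of the 10 genes over 53 male embryos (left) and 48 female embryos (right), on log2(normalized count + 0.5); the colour gives r, and numbers mark pairs with an adjusted p under 0.05. In males Nodal pairs with Acvr2b (0.63) and Lefty1 (0.59), and in females Tdgf1 pairs with Lefty2 (0.77). The female Lefty2 values rest on a median of 2 reads.

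Set against the whole table, Acvr2b was the 77th and Lefty1 the 167th of 13083 genes in order of their r with Nodal over males, where the median gene had r = 0.040. Lefty2 came 1100th and Tdgf1 9533rd. From the side of Lefty1, Nodal came 40th. From that of Tdgf1, Lefty2 came 70th and Smad3 12858th. The genes with the highest r over males, among 8403 with a mean of at least 5, are given as a description. For Nodal they were Mcm5, a subunit of the replicative helicase (r = 0.75, rho = 0.80), Rangap1, which acts in nuclear transport (0.73, 0.77), and Dlst, an enzyme of the citric acid cycle (0.73, 0.71). For Tdgf1 they were Ccdc36 (r = 0.74, rho = 0.76), the microtubule-binding protein Clasp2 (0.58, 0.57) and the nucleolar protein Nop58 (0.53, 0.54). For Lefty1 they were the aminotransferase Bcat2 (r = 0.80, rho = 0.74), the ligand Wnt3 (0.78, 0.60) and the integrin subunit Itgb5 (0.71, 0.53). For Lefty2 they were the nuclease and helicase Dna2 (r = 0.73, rho = 0.77), the ETS factor Etv1 (0.71, 0.68) and Ubr7 (0.70, 0.71). No gene was among the 3 nearest of more than 1 of these members.

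**Figure D4:**
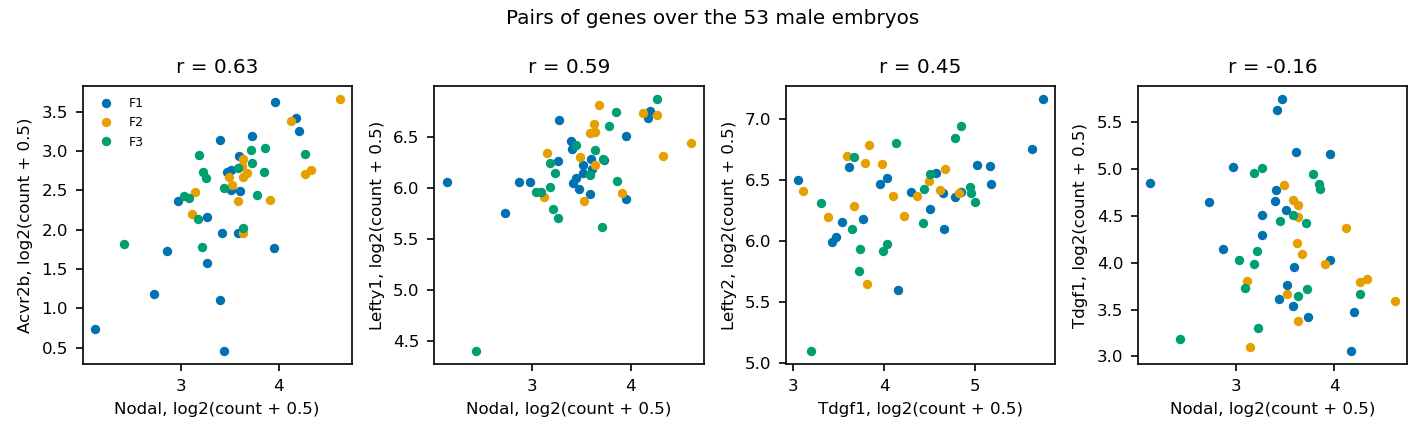
Pairs of genes over the 53 male embryos, each point an embryo coloured by generation, both axes log2(normalized count + 0.5). Nodal with Acvr2b (r = 0.63), Nodal with Lefty1 (0.59) and Tdgf1 with Lefty2 (0.45) slope upward, and Nodal with Tdgf1 (-0.16) shows no slope past the threshold.

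In females the same 45 pairs gave 15 past the threshold by r, 13 positive and 2 negative, and 11 by rho, but at the female medians Nodal, Tdgf1, Lefty1 and Lefty2 rest on 7, 3, 9 and 2 reads. Tdgf1 and Lefty2 had the highest value, r = 0.77 and rho = 0.66 (permutation p = 1e-05 for each, the smallest possible, adjusted p = 0.00022 and 0.00045), with 0.79 in F1, 0.31 in F2 and 0.87 in F3 and 0.77 without the 2 females farthest from the Tdgf1 median. In the 17 vehicle females it was 0.20 and in the 31 exposed females 0.81. The mean of Lefty2 over all females was 0.490, under the minimum of 0.5, so this pair has no rank against the whole table in females. Nodal and Tdgf1 had r = 0.60 and rho = 0.41 in females (permutation p = 2e-05 and 0.0041, adjusted p = 0.00022 and 0.023), with 0.17 in F1, 0.52 in F2 and 0.70 in F3, 0.22 in vehicle and 0.75 in exposed females, and 0.48 without the 2 females farthest from the Nodal median. The difference between the sexes in these correlations was not tested. Acvr2a and Acvr2b, with medians of 87 and 33 reads in females, moved against each other in females: r = -0.57 and rho = -0.49 (permutation p = 2e-05 and 0.00041, adjusted p = 0.00022 and 0.0061), with -0.56 in F1, -0.56 in F2 and -0.73 in F3, and -0.61 without the 2 females farthest from the Acvr2a median. In males the same pair had r = -0.21 and rho = -0.20 (permutation p = 0.14 and 0.16, adjusted p = 0.42 and 0.51). Nodal and Acvr2b had r = 0.45 and rho = 0.44 in females (permutation p = 0.0014 and 0.0021, adjusted p = 0.0090 and 0.013), with 0.13 in F1, 0.58 in F2 and 0.70 in F3, and 0.38 without the 2 females farthest from the Nodal median. Against the whole table this is not unusual in females, where Acvr2b came 1738th and Tdgf1 464th of 13041 genes in order of their r with Nodal. All pairs of the table were not tested in this way in either sex, so the counts of 7 and 15 pairs have no such background.

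Fate genes, Pou5f1, Sertoli RNA and depth were set beside the members in males, in 50 relations. Of these, 8 passed by r and 6 by rho, 4 of them by both, and without F1 male D2593.1, 14 passed by r. No share of all genes with such relations is given here, so these counts, and the single relations below, have no background. Lefty2 was lower where Stra8, the gatekeeper of meiosis, was higher: r = -0.52 and rho = -0.49 (permutation p = 7e-05 and 0.00031, adjusted p = 0.0017 and 0.0077), with -0.46 in F1, -0.50 in F2 and -0.61 in F3 and -0.46 without the 2 males farthest from the Stra8 median. Lefty2 was also lower where Nanos2 was higher: r = -0.44 and rho = -0.54 (permutation p = 0.00085 and 5e-05, adjusted p = 0.011 and 0.0025), with -0.64 in F1, -0.63 in F2 and -0.24 in F3, and -0.38 without the 2 males farthest from the Nanos2 median. Lefty2 was thus lower in males with more of either fate marker, although Stra8 and Nanos2 stand for opposite fates. Both markers were low in males, with medians of 1.40 for Stra8 (0 in 4 males) and 1.84 for Nanos2 (0 in 6 males). The median of Stra8 in females was 397. Whether these low male values follow a difference in fate was not tested. Lefty1 had r = 0.36 and rho = 0.33 with Nanos2 (permutation p = 0.0058 and 0.019, adjusted p = 0.036 and 0.085), which did not pass without the deep libraries (0.36, adjusted p = 0.089), with littermates averaged (0.31, adjusted p = 0.11) or without D1390.5 (0.31, adjusted p = 0.10), among others.

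The relations with Pou5f1 and with depth did not pass without the deep F1 libraries, although those with Pou5f1 had values of like size in F3, which holds none. Acvr2b and Pou5f1 had r = 0.53 and rho = 0.43 (permutation p = 3e-05 and 0.0017, adjusted p = 0.0015 and 0.026), with 0.61 in F1, -0.16 in F2 and 0.54 in F3, 0.49 without the 2 males farthest from the Pou5f1 median, and 0.31 without the deep libraries (adjusted p = 0.17). Nodal and Pou5f1 had r = 0.42 and rho = 0.37 (permutation p = 0.0018 and 0.0072, adjusted p = 0.016 and 0.052), with 0.46 in F1, 0.17 in F2 and 0.49 in F3, 0.28 without the 2 farthest males, 0.21 without the deep libraries (adjusted p = 0.48) and 0.32 without F1 male C4258.5 (adjusted p = 0.10). Smad7 and Pou5f1 had r = -0.39 and rho = -0.39 (permutation p = 0.0038 and 0.0046, adjusted p = 0.027 and 0.043), with -0.62 in F1, 0.23 in F2 and -0.52 in F3, -0.37 without the 2 farthest males and -0.30 without the deep libraries (adjusted p = 0.18). Leaving out F1 male C3774.3 (-0.33, adjusted p = 0.066) or D3402.3 (-0.32, adjusted p = 0.079) also took Smad7 and Pou5f1 over the threshold. Acvr2b was lower with more reads (log10, n = 52), at r = -0.50 and rho = -0.33 (permutation p = 0.00054 and 0.017, adjusted p = 0.0090 and 0.085), with -0.55 in F1, -0.10 in F2 and 0.23 in F3, -0.40 without the 2 farthest males, and -0.12 without the deep libraries (adjusted p = 0.63). Acvr1b was higher with more reads at r = 0.43 and rho = 0.23 (permutation p = 0.0019 and 0.11, adjusted p = 0.016 and 0.28), with 0.54 in F1, -0.06 in F2 and -0.09 in F3, 0.39 without the 2 farthest males and 0.024 without the deep libraries (adjusted p = 0.89), and it did not pass without C4219.2 (0.36, adjusted p = 0.074) or C4258.5 (0.34, adjusted p = 0.10) either.

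With the mean of the Sertoli markers, Acvr2b (r = 0.33, rho = 0.42, permutation p = 0.017 and 0.0021, adjusted p = 0.064 and 0.026) and Tdgf1 (r = -0.34, rho = -0.38, permutation p = 0.013 and 0.0052, adjusted p = 0.058 and 0.043) passed by rho and not by r. Within generations Acvr2b had r = 0.37, 0.52 and 0.12 with the Sertoli mean in F1, F2 and F3, and Tdgf1 had -0.64, -0.13 and -0.0092. Without the 2 males farthest from the Sertoli median these values were 0.39 for Acvr2b and -0.27 for Tdgf1. The part of somatic RNA in the levels of these genes was not tested. Nodal, Lefty1 and Lefty2 had no relation with the Sertoli mean past the threshold (r = 0.20, 0.23 and -0.10, permutation p = 0.15, 0.10 and 0.45, adjusted p = 0.31, 0.28 and 0.55).

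Brothers and sisters of a litter share a dam, and 42 litters had both. After the mean of each sex, generation and dose group was removed, 3 of the 10 members were correlated between brothers and sisters by r, and 2 by rho. Acvr2b had r = 0.72 and rho = 0.69 (permutation p = 1e-05 for each, the smallest possible, adjusted p = 5e-05 and 0.0001), with 0.84 over 14 litters of F1, 0.09 over 15 of F2 and 0.70 over 13 of F3, and 0.66 without the 2 farthest litters. Smad2 had r = 0.69 and rho = 0.50 (permutation p = 1e-05 and 0.00063, adjusted p = 5e-05 and 0.0031), with 0.81 in F1, 0.20 in F2 and 0.61 in F3, and 0.52 without the 2 farthest litters. Likeness of littermates was general: over 13288 genes the median r was 0.251, 1.11% of genes had an r at least that of Acvr2b, 1.63% that of Smad2 and 20.1% that of Tdgf1. For these 3 genes the value was lowest in F2, and the difference between generations was not tested. Without the deep libraries, which came from both sexes of F1, r was 0.54 for Acvr2b and 0.54 for Smad2, reached by 4.55% and 4.06% of genes. Tdgf1 had r = 0.43 and rho = 0.35 (permutation p = 0.0047 and 0.025, adjusted p = 0.016 and 0.083), with 0.67 in F1, -0.11 in F2 and 0.51 in F3, 0.29 without the 2 farthest litters, and no call without the litter of D1824 (0.37, adjusted p = 0.065) or of D2582 (0.36, adjusted p = 0.061). For Nodal the value was 0.03 (rho = 0.11, permutation p = 0.85 and 0.50, adjusted p = 0.85 and 0.50), for Lefty1 -0.20 (rho = -0.26, permutation p = 0.21 and 0.089, adjusted p = 0.26 and 0.14) and for Lefty2 0.28 (rho = 0.31, permutation p = 0.072 and 0.043, adjusted p = 0.14 and 0.11). What litters share beyond the dam, such as the day of collection or preparation, is not labelled and was not tested.

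The starts of Nodal and Tdgf1 are shown because both are higher in males while their correlation over males did not pass the threshold. RefSeq promoter sequences (GRCm38.p6) were at hand for 6 of the 10 members. In the 250 bases before each start, both strands were searched for GTCTAGAC (a palindromic Smad-binding element) and the shorter GTCTG, not part of it. AATCCACA (a core Foxh1 motif) and the looser AATNNACA, which contains it, were searched for as well. Tdgf1 held AATNNACA at 2 places, in capitals here as AATTTACA, against 10.9% of 32851 promoters with at least 1 match, and Nodal held none. GTCTG was found in Tdgf1, Acvr2a and Acvr2b and in 42.2% of promoters, while AATCCACA (0.718% of promoters) and GTCTAGAC (0.167%) were found in none of the 6. Sequence outside these 250 bases, introns and distal enhancers included, was not searched, and whether any match is used was not tested. The Nodal window is chr10:61417722-61417971 on the plus strand and the Tdgf1 window chr9:110946159-110946408 on the minus strand.
Nodal: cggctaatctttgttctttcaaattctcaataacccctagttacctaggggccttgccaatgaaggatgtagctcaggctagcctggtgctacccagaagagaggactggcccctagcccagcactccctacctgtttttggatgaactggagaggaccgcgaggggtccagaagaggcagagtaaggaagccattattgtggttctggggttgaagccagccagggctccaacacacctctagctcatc
Tdgf1: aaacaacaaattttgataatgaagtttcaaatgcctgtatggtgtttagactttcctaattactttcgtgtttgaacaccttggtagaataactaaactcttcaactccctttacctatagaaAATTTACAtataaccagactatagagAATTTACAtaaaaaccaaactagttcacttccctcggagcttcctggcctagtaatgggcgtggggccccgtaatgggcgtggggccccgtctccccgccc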

How the data were processed

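The deposited signal is the normalized count the authors made: exon reads counted on mm10 and scaled per library with TMM factors of edgeR, whose versions are not stated. Values were used as deposited, as log2(normalized count + 0.5), for genes whose mean in the fitted embryos reached 0.5. Differences were tested with limma 3.58.1 in R 4.3.3 (empirical Bayes with a mean-variance trend; 8 sex-by-dose groups in each fit, per generation or over all generations; Benjamini-Hochberg over all genes tested; threshold 0.05, and for sex also a fold change over 2). Correlations used Python 3.11.15 with numpy 2.4.6 and pandas 2.3.3, with 100000 two-sided permutations of embryos or litters, adjusted over the 45 pairs, 50 relations or 10 genes of each set; values without 2 embryos leave out those farthest from the median of the first gene, or of the other measure. Confidence intervals are 95%.

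Because the values are whole reads times a factor per library, reads were recovered (within 0.05 of a whole number) in 99 embryos and tested with edgeR 4.0.16, by quasi-likelihood and by likelihood ratio; reads were not recovered for F3 male D4190.1 and F3 female D1388.3. Other alternatives were adding 0.1 or 1 in place of 0.5, testing every gene or those with a mean of 5 or more, upper quartile scaling, littermates of the same sex averaged, the dam as a block, generation as a term, only the 2 compared groups, group means removed from correlations, no deep libraries, and leaving out each embryo or litter. Reads summed over the genes of the table, not over all reads sequenced, are 5004382 to 87240533 per library. They follow PCR amplification of cDNA, duplicates not being marked in the values. Sums of the deposited values run from 758171 to 1594837. No copies were found among the 184 pairs compared, those within a group among embryos with recovered reads: chi-square divided by its degrees of freedom was 5.44 or more. Pairs across groups were not compared. Length per gene is the union of its exons in GENCODE vM21.

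Named genes are the 10 members in every comparison, the pathway genes past the threshold (at most the 10 with the smallest p), the 3 genes with the highest r over males for Nodal, Tdgf1, Lefty1 and Lefty2 among genes with a mean of at least 5 in males, and the most abundant gene of each marker list. The members and the lists of pathway and marker genes were chosen with earlier results of these data known. The marker lists are those of germ cells, male and female germ cell fate, Sertoli, pregranulosa, Leydig, stromal, endothelial, macrophage and erythroid cells.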

Additional observations from a re-analysis of the deposited data

Results flagged for a closer look

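Among 140 groups of 4 to 10 values of a member, 6 held an embryo far from the others by Dixon's test at the 95% level; chance gives about 1 in 20 groups, which is 7 of 140. Acvr2a was 7.08 in F1 vehicle male C3774.3 and 27.1 in F3 vehicle male D3402.3. Smad7 was 15.4 in F2 vehicle male D3001.1 and 17.9 in D3402.3. Smad2 was 53.7 in F3 female E0103.2 at 2 mg/kg-day, and Nodal was 2.33 in F3 vehicle female D3526.1. No cause was tested.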

How the results depend on the processing

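The 4 sex differences of Nodal, Tdgf1, Lefty1 and Lefty2 kept their direction and stayed past the threshold in the combined fit under every setting run (4 to 4 members); over settings other than leaving out an embryo the log2 difference was 2.87 to 3.82 for Nodal, 3.89 to 6.04 for Tdgf1, 5.38 to 6.38 for Lefty1 and 6.11 to 8.39 for Lefty2. In females the likelihood ratio test made 5 calls by generation and dose (Tdgf1 in 3 comparisons, Lefty2 in 2), 1 over all generations and 1 in the difference between the sexes, and a fit of only the 2 compared groups made 1 (Tdgf1 in F3 at 0.2 mg/kg-day, adjusted p = 0.036), against 0 in limma; the likelihood ratio test also called 1 pathway gene by exposure, against 0. The cause was not tested. With a minimum mean of 5, fewer genes are tested and 6 pathway genes passed instead of 14. With littermates averaged, fewer samples remain and 4 male pairs passed instead of 7. Without F1 male D2593.1, 14 relations with other measures passed instead of 8, and without the deep libraries Acvr2b and Smad2 in females had r = -0.17 instead of 0.35; the cause was not tested.

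Leaving out each embryo or litter, the counts ran from 0 to 0 for exposure in males, in females and for the difference between the sexes, from 5 to 7 for male pairs, 11 to 17 for female pairs, 6 to 14 for other measures and 2 to 3 for litters. With the dam as a block the consensus correlation was 0.382 in F1, 0.0532 in F2, 0.225 in F3 and 0.262 over all, and no sex or exposure count moved. The block joins littermates only, since a shared F0 ancestor is not labelled. Where leaving out an embryo leaves 1 in a group, that embryo is taken to vary like the other groups. Depth limits Tdgf1 and Lefty2 in females, at medians of 3 and 2 reads, and Acvr1b in both sexes.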
